A study of Homo sapiens with 90 samples.

Results

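HepG2 cells, an established line derived from a human liver tumour, were exposed for 24 h to 2,4-D at 1 or 3 µM and compared with cells that received the DMSO vehicle alone. The 9 arrays compared were the 3 arrays at 1 µM, the 3 at 3 µM and the 3 DMSO arrays in the form normalized together with the 2,4-D samples, out of 90 columns in the series. They were chosen by their labels, and no measured value was used for the choice. For a gene with several probe sets naming it alone, the one brightest on average across the 90 columns was taken, leaving 19774 genes. Exposure began 24 h after plating, and every well, DMSO wells included, held 0.2% DMSO. The other arrays of the series came from the remaining doses of 2,4-D and from the azole fungicides fenbuconazole and imazalil, each at 9 doses from 0.001 to 10 µM with 3 replicates per dose. The same 3 DMSO arrays served all 3 compounds, so every comparison with DMSO rested on them.

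2,4-D (2,4-dichlorophenoxyacetic acid) is a chlorophenoxy herbicide that acts in plants as a mimic of the hormone auxin. In mammals it is a water-soluble organic acid that is carried by organic anion transporters and leaves the body largely unchanged, with a small share conjugated to amino acids. Chlorophenoxy acids share part of their structure with the fibrate drugs, which activate PPARA, the nuclear receptor that drives fatty acid oxidation genes in liver. Azole fungicides, in contrast, inhibit the sterol demethylase CYP51A1, and several of them activate the aryl hydrocarbon receptor AHR, whose classic target is CYP1A1. HepG2 cells keep the synthesis of plasma proteins, the sterol pathway and an AHR response, but express many hepatic P450 enzymes at low levels. The arrays read RNA of whole wells, so fewer cells of a type and less RNA per cell cannot be told apart.

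The cells carried the liver profile of their label. Of the hepatocyte markers 10 were measured, and their group means lay between 10.06 (TTR at 1 µM) and 13.21 (ALB at 1 µM) on the log2 intensity scale, on which 1 unit is a 2-fold difference in signal. The log2 of their summed signal ranged from 15.82 to 15.92 on the DMSO arrays, from 15.89 to 15.93 at 1 µM and from 15.87 to 15.89 at 3 µM. None of the 8 mesenchymal markers or of the 7 blood and endothelial markers measured had a group mean of 5 or more in any of the 3 groups. Their summed signals were 6.01 to 6.19 and 5.69 to 5.96. Of 4 bile duct markers 3 had a level of 5 or more, EPCAM among them and their summed signal was 11.72 to 11.97 with DMSO, 11.94 to 12.04 at 1 µM and 11.88 to 12.04 at 3 µM. The arrays resembled each other as closely between groups as within them. The correlation across genes was 0.996 to 0.9982 between arrays of a group and 0.9959 to 0.9983 between treated and DMSO arrays. The spread of values on an array, given as the interquartile range, was 3.643 to 3.798 with DMSO, 3.768 to 3.784 at 1 µM and 3.703 to 3.736 at 3 µM. The difference between 3′ and 5′ control probe sets of ACTB, a sign of RNA integrity, was 0.295 to 0.558, 0.469 to 0.546 and 0.362 to 0.524 in the same order.

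The main question was which genes differed from DMSO at these doses. None of 19774 genes passed in the pooled comparison, in which the means of the 1 and 3 µM groups were averaged (limma, Benjamini-Hochberg adjusted p under 0.05, 0% of genes called, lowest adjusted p = 0.999). At an unadjusted p under 0.05 there were 689 genes, 3.48% of those tested, 280 above DMSO (1.42%) and 409 below it (2.07%). That count moved to 1622 without DMSO replicate 1 and to 1389 without replicate 1 of every group, while the number of genes past the adjusted threshold stayed at 0. The non-coding RNA LINC00847 had the lowest unadjusted p in limma, 8.24e-05. The median difference over all genes was -0.00507, and 47.6% of genes lay above 0. The differences of single genes spanned -0.4391 to 0.4483, so none reached 1.5-fold in either direction.

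The intervals bound the change in the array reading, and for dim probe sets, which lie close to background, they need not bound the change in RNA. The median half-width of the 95% interval was 0.19 over all genes, a fold of 1.14, and 0.155, a fold of 1.11, over the 8720 genes whose mean level was at least 5. For 19629 genes (99.3%) the interval lay inside 1.5-fold in both directions. Among the 8720 genes at a level of 5 or more these were 8666 (99.4%).

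Genes of interest for liver toxicology gave small differences with narrow intervals, as the plot of single array values shows. CYP1A1, the AHR target that oxidizes aromatic compounds, read 4.19, 4.88 and 4.73 with DMSO, 4.37, 4.59 and 4.78 at 1 µM, and 4.67, 4.74 and 4.69 at 3 µM. The 3 groups overlapped, and the pooled difference was 0.04 ± 0.10 (log2, SE), a fold of 1.03 with an interval of 0.889 to 1.19. Without DMSO replicate 1 the difference was -0.16 and without DMSO replicate 2 it was 0.18, so its sign rested on single control arrays. CYP3A4, the main drug-metabolizing P450 and a target of the receptor PXR, lay between 4.00 and 4.18 on all 9 arrays, a level below 5. Its fold was 0.982 (0.907 to 1.06) in the array reading. CYP2B6, a target of the receptor CAR, lay between 2.77 and 3.16, near the lower end of the scale, with a fold of 1 (0.837 to 1.2) in the array reading. HMOX1, the haem oxygenase induced by oxidative stress, stayed within 8.62 and 8.72, with a fold of 1.01 (0.931 to 1.09). CDKN1A, the cell cycle inhibitor induced by p53, had a fold of 0.965 (0.879 to 1.06), and ALAS1, which starts haem synthesis, one of 1.03 (0.937 to 1.12). TXNIP had a fold of 0.999 (0.902 to 1.11), and its relative ARRDC4 one of 1.01 (0.859 to 1.19).

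**Figure D1:**
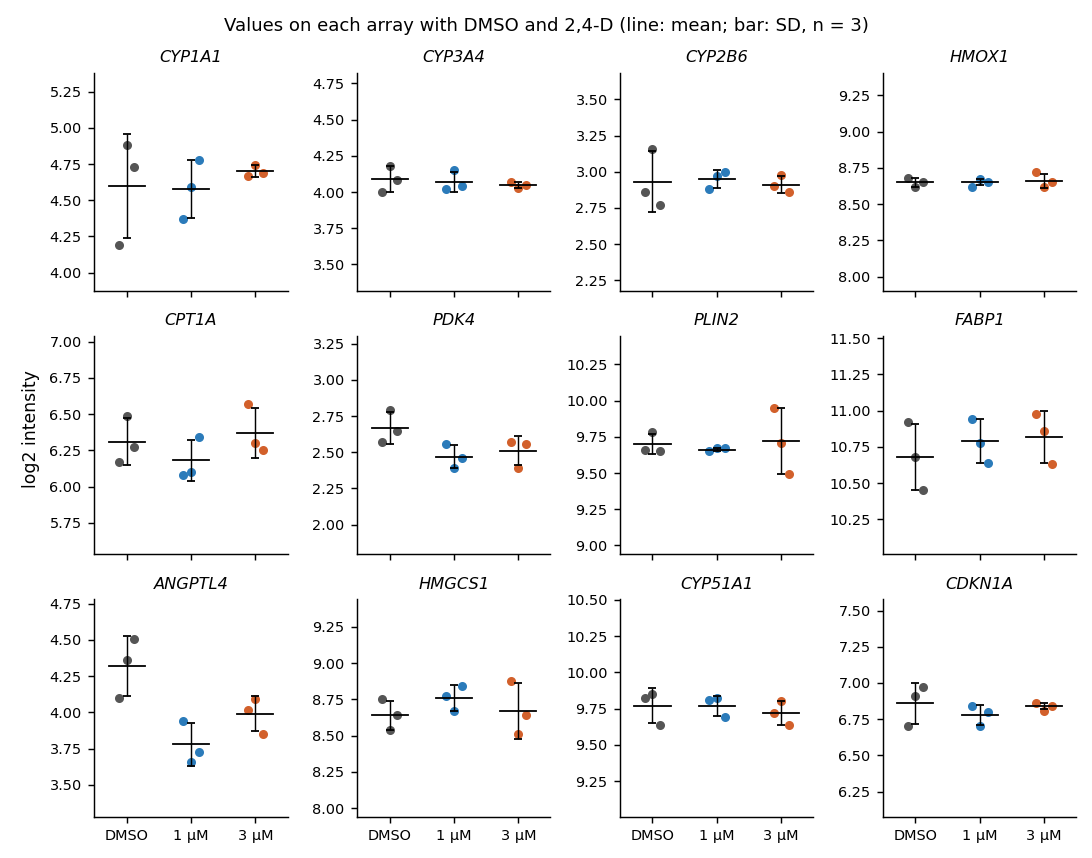
Log2 intensity (y axis, each panel spanning 1.5 units) of 12 genes on the 3 DMSO arrays, the 3 arrays with 1 µM and the 3 with 3 µM 2,4-D (x axis); points are single arrays, the line the mean and the bar the SD (n = 3). The groups overlap in each panel except ANGPTL4, whose 6 treated arrays (3.66 to 4.09) lie below the DMSO arrays (4.10 to 4.51).

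Targets of PPARA, the receptor that fibrates activate, were spread around the DMSO level. Of 16 measured targets 6 lay above DMSO and 10 below, with a median of -0.0126 against -0.00507 over all genes, and 0 were called. PDK4, the kinase that shuts down pyruvate oxidation and one of the most sensitive PPARA targets, was near the lower end of the scale at 2.57, 2.79 and 2.65 with DMSO, 2.56, 2.39 and 2.46 at 1 µM, and 2.57, 2.39 and 2.56 at 3 µM. Its difference was -0.18 ± 0.09 (fold 0.884, 0.774 to 1.01). CPT1A, which admits fatty acids to the mitochondrion, had a fold of 0.976 (0.861 to 1.11), and PLIN2, the coat protein of lipid droplets, one of 0.993 (0.878 to 1.12). FABP1, the liver fatty acid binding protein, read 10.92, 10.68 and 10.45 with DMSO against 10.63 to 10.98 on the 6 treated arrays, a fold of 1.09 (0.939 to 1.27). The target with the largest difference was ANGPTL4, a secreted inhibitor of lipoprotein lipase. It read 4.10, 4.36 and 4.51 with DMSO, 3.94, 3.66 and 3.73 at 1 µM, and 4.02, 4.09 and 3.85 at 3 µM. All 6 treated arrays were below all 3 DMSO arrays, a pattern shown by 164 genes (0.829%) in this direction. The difference was -0.44 ± 0.15 (unadjusted p = 0.00669, limma adjusted p = 0.999), in a gene that read below 5 on all 9 arrays. It was -0.257 at 0.001 µM and -0.191 at 10 µM as well. Against the 3 lowest doses, a comparison with the same treated arrays and without any DMSO array, it was -0.21 ± 0.11. The pooled value of ANGPTL4 over 1 and 3 µM minus DMSO was also -0.122 with fenbuconazole and -0.251 with imazalil, which share these DMSO arrays.

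Peroxisome genes and the handling of organic acids were examined because 2,4-D is itself such an acid. Of 10 peroxisome genes 8 lay above DMSO (median 0.0625, 0 called), from ACOX2, a branched-chain acyl-CoA oxidase, at -0.14 ± 0.07 to AMACR, an acyl-CoA racemase, at 0.13. This median was 0.122 without DMSO replicate 1 and 0.000 without replicate 2 of every group. HSD17B4, the bifunctional enzyme of peroxisomal beta-oxidation, was at 0.09 ± 0.05, and EHHADH, a related PPARA target, at 0.23 ± 0.12. Of 8 genes that activate or conjugate acids, 5 lay above DMSO with a median of 0.0252. ACSL4, an acyl-CoA synthetase that prefers arachidonic acid, had the highest value of all list members, 0.39 ± 0.21, but its DMSO arrays read 8.39, 7.46 and 8.02 and overlapped the treated range of 8.11 to 8.63. Its interval, a fold of 0.98 to 1.76, was among the 4 intervals of list genes that crossed 1.5-fold, with those of CCNE2, ANGPTL4 and IFI27. BAAT, which joins bile acids to glycine and taurine, was at 0.29 ± 0.14, and ACSM3, a medium-chain acyl-CoA synthetase, at 0.25 ± 0.13. The median of the acid genes was 0.135 among those with a mean of at least 4 and -0.007 without replicate 1 of every group. Of 10 organic anion transporters 6 lay above DMSO with a median of 0.0306, which was -0.029 without DMSO replicate 3. SLC22A7, a liver organic anion transporter, was at 0.12 ± 0.09, and the export pump ABCC3 at -0.07 ± 0.07.

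Xenobiotic and oxidative stress responses gave values around 0. For 8 AHR targets the median was -0.00695 with 4 above DMSO, for 10 PXR and CAR targets 0.00206 with 6 above, and for 11 targets of the antioxidant regulator NRF2 -0.0163 with 5 above. The AHR median was -0.128 without replicate 2 of every group. ALDH3A1, an aldehyde dehydrogenase under AHR control, was the lowest of the AHR targets at -0.23 ± 0.11 and lay between 2.85 and 3.34, near the lower end of the scale. NQO1, a quinone reductase under both AHR and NRF2, was high in all groups, with a fold of 1.01 (0.947 to 1.09). OSGIN1, a growth inhibitor under NRF2, was at -0.24 ± 0.14.

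Sterol and lipid synthesis genes were near the DMSO level. Of 18 genes of cholesterol synthesis and uptake 7 lay above DMSO, the median was -0.0164 and the members spanned -0.0986 (DHCR7) to 0.117 (MSMO1). The intervals of all 18 lay inside 1.5-fold. HMGCS1, the synthase that feeds HMG-CoA into the pathway, read 8.75, 8.54 and 8.64 with DMSO and 8.51 to 8.88 with 2,4-D, a fold of 1.05 (0.908 to 1.22). CYP51A1 had a fold of 0.984 (0.891 to 1.09), a log2 difference of -0.02. Averaged over the probe sets of CYP51A1 the log2 difference was 0.13, and 5 of 21 alternative settings gave the other sign. Of 16 genes of fatty acid and triglyceride synthesis 8 lay above DMSO (median 0.00145), of 13 genes of glucose sensing and gluconeogenesis 7 (median 0.0118), and of 12 bile acid genes and targets of LXR and FXR 6 (median 0.00301). No member of these 4 lists was called.

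Stress, growth and energy genes followed the same pattern. The medians were 0.0381 for 12 genes of the integrated stress response, 0.0169 for 10 ER chaperones, 0.013 for 8 heat shock genes, 0.00459 for 12 p53 targets, 0.00871 for 21 genes of the cell cycle, -0.011 for 14 genes of the respiratory chain, -0.01 for 10 immediate early genes and 0.0102 for 14 hypoxia genes, with 0 members called. CCNE2, a cyclin of S phase entry, had the highest value among cell cycle genes, 0.36 ± 0.15 (unadjusted p = 0.0203), with DMSO arrays at 5.25, 4.89 and 4.73 and treated arrays from 4.89 to 5.53. The groups overlapped, and averaged over the probe sets of CCNE2 the difference was 0.15. The other cell cycle genes lay between -0.189 and 0.146. PHLDA3, a p53 target that restrains AKT, was at -0.21 ± 0.10. Its treated arrays (5.34 to 5.52) stayed below the DMSO arrays (5.52 to 5.76), the closest pair being equal to 2 decimals.

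The list of metallothioneins, small proteins that bind zinc, and zinc export had the fewest members above DMSO, 0 of 7, of which 6 were metallothioneins and the seventh the zinc exporter SLC30A1, yet the differences were small. The median was -0.0442, the interval of each lay inside 1.5-fold, and 0 had an unadjusted p under 0.05. The list median on single arrays was -0.033, -0.030 and 0.061 with DMSO and -0.092 to -0.016 with 2,4-D. DMSO replicate 3 was the high array, and the treated range included both other DMSO arrays. Against the 3 lowest doses 5 of 7 members were higher and the median was 0.0194, so the direction depended on the reference. Among interferon genes 4 of 10 lay above DMSO, and their median was -0.0522. It was 0.013 without DMSO replicate 2. IFI27, an interferon-induced membrane protein, read 2.96, 3.46 and 3.01 with DMSO, 2.85, 2.83 and 2.80 at 1 µM, and 2.56, 2.73 and 2.63 at 3 µM. All treated arrays were below DMSO (-0.41 ± 0.11, unadjusted p = 0.000895, limma adjusted p = 0.999), at a level near the lower end of the scale. Against the 3 lowest doses IFI27 was at -0.04 ± 0.08. Its pooled value over 1 and 3 µM minus DMSO was also -0.364 with fenbuconazole and -0.36 with imazalil, which share these DMSO arrays.

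**Figure D2:**
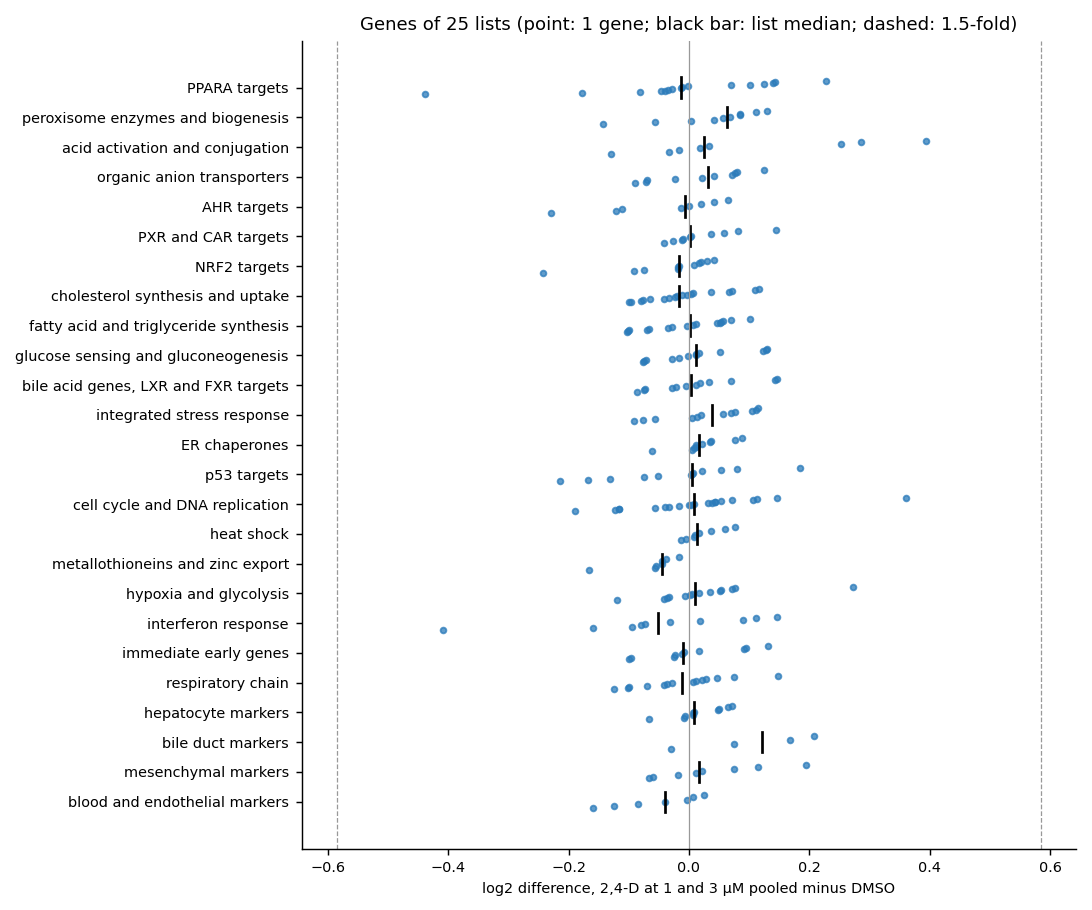
Log2 difference between 2,4-D at 1 and 3 µM pooled and DMSO (x axis) for the measured genes of 25 lists (y axis); each point is 1 gene, the black bar the list median, and dashed lines mark 1.5-fold. The points gather around 0, from ANGPTL4 at -0.439 to ACSL4 at 0.393, and none lies beyond a dashed line.

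The genes that came closest to separating 2,4-D from DMSO were those with every treated array on 1 side of every DMSO array. There were 111 such genes above DMSO (0.561%) and 164 below (0.829%). Among those with a mean level of at least 5, the 5 with the smallest unadjusted p in each direction are described, none of which passed the adjusted threshold (limma adjusted p = 0.999 for each). Higher were HS6ST1, a heparan sulfate sulfotransferase (0.19 ± 0.05), POFUT4, a protein O-fucosyltransferase (0.38 ± 0.11), UTP14A, a nucleolar protein of ribosome assembly (0.25 ± 0.07), ABHD18 (0.18 ± 0.06) and AKR7A3, an aldo-keto reductase that detoxifies aldehydes (0.28 ± 0.10). Lower were CHPF, a chondroitin synthase (-0.27 ± 0.08), BCL7A, a subunit of a chromatin remodelling complex (-0.37 ± 0.12), MIEF2, a mitochondrial fission factor (-0.38 ± 0.13), MSRA, a methionine sulfoxide reductase (-0.22 ± 0.08), and ESPL1, the protease that separates sister chromatids (-0.18 ± 0.06). Averaged over the probe sets of each gene, the difference was 0.06 for HS6ST1, 0.13 for UTP14A and -0.19 for BCL7A. It was -0.16 for MSRA and -0.14 for ESPL1, and none of these changed sign. POFUT4 may serve as an example, with 5.45, 5.12 and 5.32 with DMSO, 5.73, 5.78 and 5.56 at 1 µM, and 5.58, 5.72 and 5.68 at 3 µM. Its difference lay between 0.25 and 0.47 under 21 alternative settings.

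HS6ST1, BCL7A, AKR7A3 and MSRA stood about as far from DMSO at the 3 lowest doses as at 1 and 3 µM, and the other 6 genes stood less far. HS6ST1 was 0.194, 0.187 and 0.174 above DMSO at 0.001, 0.003 and 0.01 µM and 0.204 and 0.176 above it at 1 and 3 µM. BCL7A was at -0.341, -0.416 and -0.525 at the lowest doses and at -0.435 and -0.308 at 1 and 3 µM. Measured against the 3 lowest doses, which uses no DMSO array, the differences were 0.01 ± 0.04 for HS6ST1, 0.06 ± 0.09 for BCL7A, 0.04 ± 0.08 for AKR7A3, -0.02 ± 0.06 for MSRA, -0.13 ± 0.10 for MIEF2, -0.10 ± 0.06 for CHPF and -0.08 ± 0.05 for ESPL1. POFUT4 was at 0.28 ± 0.08 in that comparison (unadjusted p = 0.00171), UTP14A at 0.12 ± 0.05 and ABHD18 at 0.11 ± 0.05, each with a limma adjusted p of 0.918. That comparison reuses the treated arrays at 1 and 3 µM by which these genes were picked. It is therefore no independent check of them, and the unadjusted p does not allow for the picking. POFUT4 did not rise steadily with dose, with 0.362 at 0.1 µM, 0.078 at 0.3 µM, 0.397 at 1 µM and 0.211 at 10 µM. The azoles share the same DMSO arrays, and their pooled values over 1 and 3 µM minus DMSO had the same sign, POFUT4 with imazalil excepted. With fenbuconazole and imazalil CHPF was at -0.189 and -0.252, UTP14A at 0.19 and 0.165, and MIEF2 at -0.219 and -0.172. ABHD18 was at 0.024 and 0.071, ESPL1 at -0.1 and -0.047, and POFUT4 at 0.164 and -0.011.

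**Figure D3:**
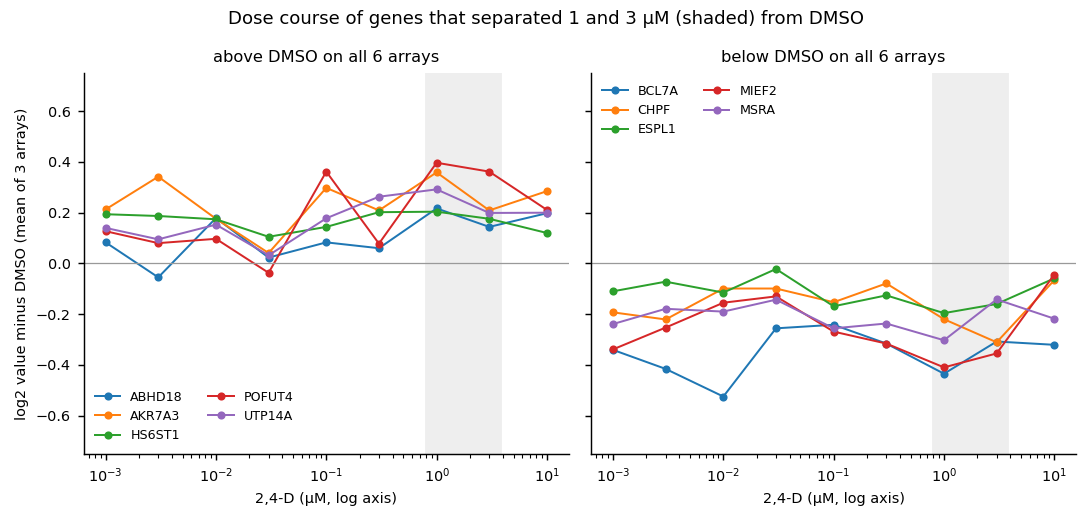
Mean log2 value minus DMSO (y axis, 3 arrays per point) against the dose of 2,4-D (x axis, log scale) for 5 genes above and 5 below DMSO on all 6 arrays at 1 and 3 µM (shaded). At 0.001 µM HS6ST1 is at 0.194 and BCL7A at -0.341, about as far from 0 as in the shaded range, whereas POFUT4 is at 0.127 there and at 0.397 at 1 µM.

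The comparison with the 3 lowest doses, 6 arrays against 9, called none of 19774 genes (limma, 0% of genes called, lowest adjusted p = 0.918), with 1028 at an unadjusted p under 0.05 (5.2%), 550 above (2.78%) and 478 below (2.42%). This count was 578 without replicate 1 of every group. Groups that did not overlap were found for 3 genes above (0.0152%) and 7 below (0.0354%). LAD1, a protein of basement membrane anchoring, was the member of these with a level of at least 5, at -0.25 ± 0.07 (unadjusted p = 0.000882), and stood at 0.096, 0.128 and 0.156 above DMSO at the 3 lowest doses and at -0.116 and -0.127 at 1 and 3 µM. At 10 µM it was at 0.050, above DMSO again.

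The single doses gave the same count of called genes, and 1 µM had more genes at a small unadjusted p than 3 µM. At 1 µM 0 genes passed (0% called, limma, lowest adjusted p = 0.293), and 938 (4.74%) had an unadjusted p under 0.05, 402 above (2.03%) and 536 below DMSO (2.71%). At 3 µM 0 passed (0% called, lowest adjusted p = 1), and 515 (2.6%) had an unadjusted p under 0.05, 237 above (1.2%) and 278 below (1.41%). Control arrays moved these counts, to 1907 at 1 µM and 933 at 3 µM without DMSO replicate 1 and to 600 at 1 µM without DMSO replicate 2. With each array's interquartile range as a covariate the count was 586 at 1 µM and 634 at 3 µM. The 1 µM arrays had a narrow and high interquartile range, as given above, and its part in the larger count at 1 µM was not tested beyond this covariate.

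MCF2L had the smallest p at 1 µM. It read 6.15, 6.38 and 6.08 with DMSO, 5.77, 5.87 and 5.74 at 1 µM, and 6.18, 6.31 and 6.15 at 3 µM. The 1 µM arrays were below all others, whereas 3 µM overlapped DMSO. The difference from DMSO was -0.41 ± 0.08 at 1 µM (limma adjusted p = 0.293) and 0.01 ± 0.08 at 3 µM. The difference between the doses was 0.42 ± 0.08 (limma adjusted p = 0.188), and whether it passed depended on the settings, as given with the limits. Of the 8 probe sets of MCF2L the next brightest, at a level of 5.88, gave -0.20 at 1 µM, and the remaining 6 were dim and gave -0.16 to 0.15. Averaged over its probe sets, the difference was -0.09 at 1 µM. At the neighbouring dose of 0.3 µM the value was -0.133 and at 10 µM -0.035.

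Other genes set 1 µM apart without passing the threshold. NSMF, a protein of synapse-to-nucleus signalling, was at -0.34 ± 0.09 and PGS1, an enzyme of cardiolipin synthesis, at -0.23 ± 0.07 against DMSO, while IFRD1, a transcriptional coregulator, was at 0.31 ± 0.08, MPDZ, a scaffold of cell junctions, at 0.40 ± 0.11 and TAF1A, a subunit of the RNA polymerase I factor, at 0.48 ± 0.14. Groups did not overlap for 807 genes above (4.08%) and 1094 below (5.53%) at this dose, so these 5 were among many. IFRD1 read 7.17, 7.02 and 7.26 with DMSO, 7.50, 7.44 and 7.43 at 1 µM, and 6.99, 7.24 and 7.16 at 3 µM. Like MCF2L, it returned to the DMSO range at 3 µM, where the difference was -0.02 ± 0.08. At 3 µM the genes named by the same rule were HS6ST1, POFUT4 and CA13, a cytosolic carbonic anhydrase (0.28 ± 0.09), above DMSO, and CHPF (-0.31 ± 0.09), FRAT2, a regulator of GSK3 (-0.20 ± 0.07), and FAM83G (-0.41 ± 0.14) below it. Groups did not overlap for 526 genes above (2.66%) and 671 below (3.39%) at 3 µM.

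Between the doses themselves, 3 µM against 1 µM, 0 genes passed (0% called, limma) and 721 had an unadjusted p under 0.05 (3.65%), 424 higher (2.14%) and 297 lower (1.5%) at 3 µM. Groups did not overlap for 1168 genes higher (5.91%) and 1008 lower (5.1%). Named by the rule were MCF2L, NSMF (0.33 ± 0.09) and TBC1D22B, a Rab GTPase regulator (0.32 ± 0.10), higher at 3 µM, and IFRD1 (-0.33 ± 0.08), SLC38A9, the lysosomal arginine sensor (-0.29 ± 0.09), and SPRYD7 (-0.40 ± 0.11), lower. CYP1A1 differed by 0.12 ± 0.12 between the doses, and HMGCS1 by -0.08 ± 0.12. ANGPTL4 was 0.21 above its 1 µM level at 3 µM, which was within the spread between replicates.

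CYP1A1 was the clearest difference between 2,4-D and the azoles at the same doses, and it passed the threshold for imazalil alone. For this comparison each array was expressed relative to the mean of its own set's DMSO columns, since the 3 sets were normalized separately, and 2 pairs of compounds were compared. CYP1A1 relative to DMSO was -0.23, -0.01 and 0.18 at 1 µM and 0.07, 0.14 and 0.10 at 3 µM of 2,4-D. With imazalil it was 1.12, 0.97 and 1.37 at 1 µM and 1.94, 1.60 and 2.24 at 3 µM, above every 2,4-D array. Groups that did not overlap were found for 88 genes higher (0.445%) and 113 lower (0.571%) with 2,4-D. The CYP1A1 difference was -1.50 ± 0.12, so that the 2,4-D level was 0.354 of the imazalil level (0.3 to 0.418, limma adjusted p = 1.62e-11). With fenbuconazole CYP1A1 was 0.18, 0.25 and 0.92 at 1 µM and 0.59, 0.90 and 1.03 at 3 µM, and the lowest of these arrays met the highest 2,4-D array. That difference was -0.60 ± 0.12 (fold 0.658, 0.557 to 0.779) and did not pass over all genes (limma adjusted p = 0.202). Whether it passed depended on the settings, as given with the limits. At 10 µM the mean of CYP1A1 relative to DMSO was 0.036 with 2,4-D, 1.655 with fenbuconazole and 3.014 with imazalil. Over its 9 doses 2,4-D kept between -0.120 and 0.100.

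**Figure D4:**
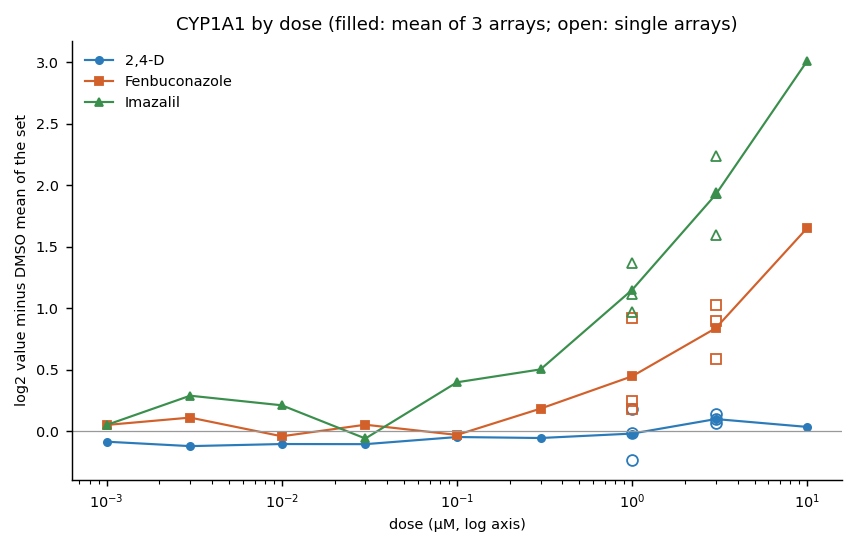
Log2 value of CYP1A1 relative to the DMSO mean of its set (y axis) against dose (x axis, log scale) for 2,4-D, fenbuconazole and imazalil; filled symbols are means of 3 arrays and open symbols single arrays at 1 and 3 µM. The 2,4-D line stays between -0.120 and 0.100, whereas imazalil reaches 1.151 at 1 µM and 1.926 at 3 µM.

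Against imazalil 3 genes passed over all 19774 (limma, 0.0152% of genes called), all lower with 2,4-D, and 1982 had an unadjusted p under 0.05 (10%). Beside CYP1A1 these were DNM1P35, a dynamin pseudogene (-0.44 ± 0.08, limma adjusted p = 0.0423), and REG3G, a secreted lectin (-0.32 ± 0.06, adjusted p = 0.0106). Both were dim, at 2.66 to 3.26 and 2.57 to 2.98 in the 2,4-D set, and both calls depended on the settings, as given with the limits. DNM1P35 is a pseudogene of a multigene family, and its reading may be shared with relatives. Among the lists, 11 of 13 genes of glucose sensing and gluconeogenesis were higher with 2,4-D than with imazalil (median 0.104, 4 at an unadjusted p under 0.05 against 4.8% of all genes in this direction), and 2 of 10 PXR and CAR targets were higher (median -0.116). None of these members passed over all genes. SLC51B, a bile acid exporter, was at -0.31 ± 0.12. Genes named by the rule and not past the threshold were FILIP1L, a filamin-interacting protein (0.30 ± 0.06, adjusted p = 0.0766), FBXL20, a ubiquitin ligase subunit (0.30 ± 0.08), and SLC25A17, the peroxisomal CoA carrier (0.29 ± 0.08), higher with 2,4-D, and ACAP3, CCDC92 and CLPTM1, at -0.445, -0.265 and -0.327.

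Against fenbuconazole 0 genes passed (0% called, limma, lowest adjusted p = 0.202), and 1166 had an unadjusted p under 0.05 (5.9%), 663 higher (3.35%) and 503 lower (2.54%) with 2,4-D. Some alternative settings called 1 or 2 genes, as given with the limits. Most genes of cholesterol synthesis and uptake were lower with 2,4-D than with fenbuconazole by small amounts, inside 1.5-fold for each interval, and none was called. Of 18 members 1 was higher with 2,4-D and 13 were lower at an unadjusted p under 0.05, where 2.54% of all genes were, and the list median was -0.162 against 0.00798 over all genes. HMGCS1 relative to DMSO was 0.13, 0.02 and 0.19 at 1 µM and 0.24, -0.14 and -0.01 at 3 µM of 2,4-D, and 0.36, 0.22 and 0.33 and then 0.47, 0.48 and 0.37 with fenbuconazole. The difference was -0.30 ± 0.08 (limma adjusted p = 0.577). The azole arrays at 3 µM were above all 2,4-D arrays, and those at 1 µM overlapped them. DHCR7, the last enzyme of cholesterol synthesis, was at -0.19 ± 0.05 and CYP51A1 at -0.16 ± 0.06. Outside the list, ACAT2, which makes acetoacetyl-CoA, was at -0.22 ± 0.07. None of these passed over all genes. The list median relative to DMSO ranged over the 3 arrays from -0.014 to 0.005 at 1 µM and from -0.089 to 0.039 at 3 µM of 2,4-D, from 0.055 to 0.124 and from 0.115 to 0.191 with fenbuconazole, and from -0.061 to -0.002 and from -0.016 to 0.041 with imazalil. Fenbuconazole alone was above every 2,4-D array of its dose. Of 16 genes of fatty acid and triglyceride synthesis 3 were higher with 2,4-D (median -0.0672), and 3 were lower at an unadjusted p under 0.05. ACLY, which makes cytosolic acetyl-CoA, was at -0.15 ± 0.04 and ACSS2, an acetyl-CoA synthetase, at -0.20 ± 0.06 (limma adjusted p = 0.577 and 0.595). Groups that did not overlap were found for 65 genes higher (0.329%) and 46 lower (0.233%) with 2,4-D, DHCR7, ACAT2 and ACLY among the latter.

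**Figure D5:**
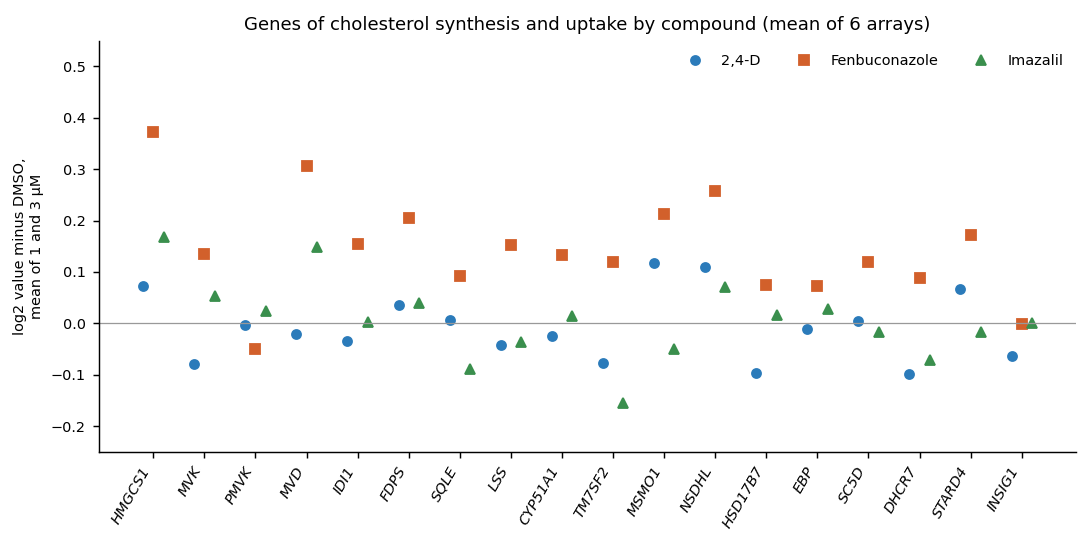
Log2 value minus DMSO, averaged over 1 and 3 µM (y axis), of 18 cholesterol genes (x axis) with 2,4-D, fenbuconazole and imazalil; each symbol is the mean of 6 arrays. The 2,4-D symbols lie between -0.0986 and 0.117, and for 17 of 18 genes the fenbuconazole symbol is the higher of the pair.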

How the data were processed

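RNA of HepG2 wells was read on arrays of the type HT HG-U133+ PM (Affymetrix). The authors deposited log2 intensities of probe sets after RMA in Partek, normalized per compound with copies of the same 3 DMSO arrays; tool versions are not given in the sources used here. These are normalized intensities, so no read depth applies, and 3 arrays per group limit the precision. Of 54715 probe sets, 102 were controls, 40914 had 1 gene symbol in the platform annotation, 864 several and 12835 none. The probe sets without a single symbol (13699) gave 0 calls in each of the 7 comparisons.

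limma 3.58.1 (lmFit, eBayes) in R 4.3.3 was fitted to 30 columns, 1 mean per group, with Benjamini-Hochberg adjustment over 19774 genes and a threshold of 0.05. For compounds, the 54 treated columns were centred on their set's DMSO mean. The fit was tested on simulated data whose planted changes were larger than any difference in the pooled comparison. That test does not show whether changes as small as those would be found. Nothing states that replicates were separate cultures, so p-values measure only the spread between these samples. The members, the 25 gene lists and the rules were chosen with earlier results of these data known.

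Named were called genes (up to 10 a direction); where under 5 passed, the smallest unadjusted p among genes at a level of at least 5 whose groups did not overlap (5 a direction, 3 outside the pooled comparison); a fixed panel; and up to 2 genes per list. The extremes of lists, LINC00847, ACAT2, SLC30A1 and HDLBP were named after their values were seen. Alternatives covered normalization, filters, probe set choice, variance models, the replicate block, array spread and leaving out arrays.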

Additional observations from a re-analysis of the deposited data

Results flagged for a closer look

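At 1 and 3 µM, 3 genes differed between 2,4-D and imazalil by the test of the difference itself, each lower with 2,4-D. CYP1A1 differed by -1.5, with every imazalil array above every 2,4-D array. The dim DNM1P35 differed by -0.44 and the dim REG3G by -0.32 on the log2 scale. For both, the 2,4-D arrays were at or below the DMSO mean and most imazalil arrays above it.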

How the results depend on the processing

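Of 113 counts of called genes under alternative settings, 101 equalled the main count or lay within 1.5 times of it. The main count was 0 in every comparison except that with imazalil, so most of these matches were 0 against 0. In the imazalil comparison most alternatives lay outside 1.5 times. In the pooled comparison 0 genes were called under all 21 alternatives. At 1 µM 1 gene was called with every probe set tested, HDLBP (lower, adjusted p = 0.0445). Between the doses 1 gene, MCF2L, was called with genes of a mean of at least 4 (adjusted p = 0.0484) and with the replicate block (0.0392). Against fenbuconazole the replicate block called 1 gene, CYP1A1 (adjusted p = 0.00714), and the mean of probe sets 2, HMGCS1 and ZNF135. Against imazalil, where 3 were called, 1 was called with a mean of at least 4, with the groups compared alone, with joint quantile normalization and without each replicate (1 to 1), and 8 with the mean of probe sets. DNM1P35 lost its call in 6 of 9 alternatives and REG3G in 5 of 9, while CYP1A1 kept it in 10 of 10 (-1.61 to -1.36). The causes were not tested. Same-numbered samples correlated at -0.043 to 0.179 (2 of 9 pairs over 0.1), too few to take the numbers as pairing the samples. In 15 of 18 pairs of an array and another group the array correlated best with its own number there, a hint from the data that the numbers may mark something shared, and the labels hold a code with the same number whose meaning is not stated. Of 508 list medians under alternatives, 98 had the other sign. For the compound comparisons, the mean of probe sets and the array spread covariate were chosen after seeing the data, as were the settings for single genes. Lists with no member at a mean of at least 4 gave no value there. Genes near the lower end of the scale are close to background, where small changes were not detectable.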
